A study of Mus musculus with 54 samples.

Results

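The first hour after a 50% lethal radiation dose was followed here in mouse hematopoietic stem cells (HSC), the rare bone marrow cells that renew all blood lineages. The comparison sets the 8 libraries of irradiated mice given vehicle and sorted at 1 h against all 15 libraries of unirradiated mice given vehicle, which is 23 of the 54 libraries of the series. The members were chosen by column name. Names of the irradiated columns give radiation and vehicle and lack the mark that the 24 h columns carry. Names of the 15 control columns give no time, so the controls of 1 h (8 in the labels) and of 24 h (7 in the labels) were pooled. All mice were C57BL/6 animals carrying a ZsGreen reporter in the Fgd5 locus, a gene used to mark HSC. Each received ethanol vehicle in saline under the skin, the irradiated ones 30 min before 8.53 Gy, and both sexes were used. HSC were sorted by a wide SLAM-LSK gate together with the reporter. Bulk libraries of sorted cells cannot tell a change in RNA per cell from a change in which cells passed the sort, and cells lost within the hour are not seen.

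Ionizing radiation breaks both strands of DNA, and the kinase ATM then acts on at least a pair of transcription factors. It stabilizes p53, which drives genes of growth arrest, cell death and its own breakdown through Mdm2, and it releases NF-kB from its inhibitors, some of which NF-kB induces in turn as a brake. Stress of many kinds also raises immediate early genes such as those of the AP-1 factors within minutes. In HSC the p53 response is known to weigh on survival and self-renewal after radiation.

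Most of the p53 targets, NF-kB and inflammatory genes and immediate early genes tested were higher at 1 h. Of 23 transcription factors of HSC identity tested, 12 were lower. Of 13475 genes tested with edgeR, 1469 were higher after radiation (10.9%) and 1399 were lower (10.4%) at a Benjamini-Hochberg adjusted p below 0.05, the threshold for "called" throughout. At least 2-fold changes were fewer and leaned upward, with 261 called genes higher and 174 lower. A stricter reading counts genes whose 8 irradiated libraries all lie outside the range of the 15 controls: 280 were higher (2.08%) and 169 lower (1.25%). All 449 of these were also called by edgeR, which a full separation of 8 and 15 libraries makes likely in advance. The median log2 fold change of all genes tested was -0.01, near 0 as TMM scaling sets it.

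Before the results, 3 facts on the libraries bear on every value. First, the controls fell into a pair of sets by the S numbers in their column names. Set A holds 8 libraries numbered S42 to S70, interleaved with the irradiated ones (S44 to S71), and set B holds 7 numbered S79 to S85. Their sizes equal the label counts of the times, but counts of Xist and Y-linked genes gave 3 females and 5 males in set A and 2 females and 5 males in set B, where the labels have 4 and 4 at 1 h and 3 and 4 at 24 h. No time was therefore given to either set. The 8 irradiated libraries matched their labels with 4 females and 4 males.

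Second, each control of set B carries a name tag that 1 control of set A also carries, and the 7 pairs were alike. Deviations from the set mean correlated within tags at 0.22 to 0.50, against -0.26 to 0.20 for the 49 other pairs, and each library of set B was closest to its own tag in 7 of 7 cases. Over the 100 genes that varied most among controls the correlation was 0.62 to 0.88 within tags and -0.59 to 0.55 between them. These correlations are across genes, which are not independent. The immediate early gene Fos stood at 738 CPM (a gene's reads per 1e+06 reads of its library, after TMM scaling) in 1 control of set A and 796 CPM in the control of set B with its tag, while the other controls ranged from 1.26 to 54.7 CPM. Prg2, an eosinophil granule gene, read 1046 and 1102 CPM in 1 pair and 1.08 and 0.659 CPM in another. The paired libraries still differed by more than counting noise, with a chi-square per gene of 19.6 to 45.1, so they were not 1 library deposited in duplicate. By Xist and Y-linked counts both libraries had the same sex in 7 of 7 pairs. Whether both libraries of a tag came from 1 mouse was not tested. If they did, p-values that treat the 15 controls as independent are too small. Counts are therefore also given with same-tag controls summed to 8, which left 1213 genes higher (9%) and 1138 lower (8.45%), 2307 of them called in the same direction as with 15 controls.

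**Figure D1:**
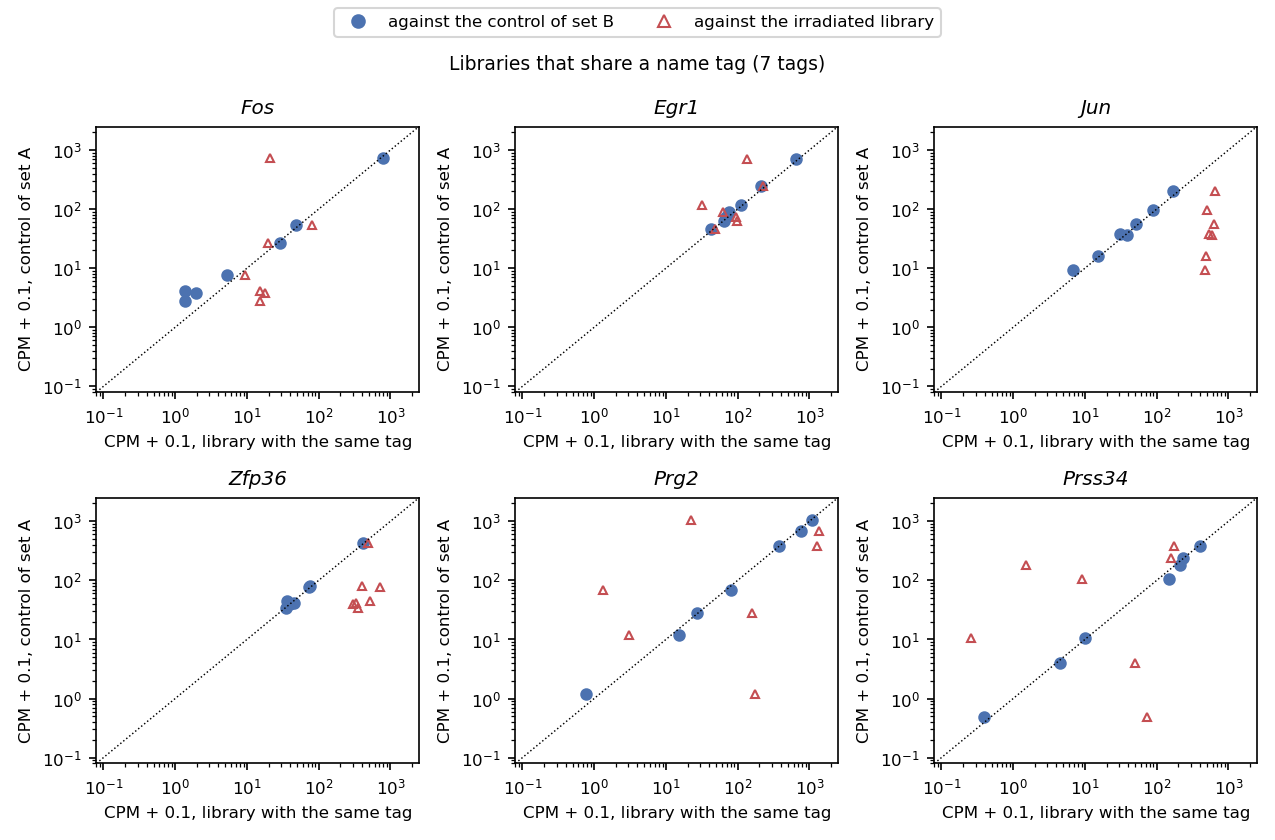
Each point is 1 name tag (7 tags): the CPM + 0.1 of its control in set A on the vertical log axis against its control in set B (filled circles) or its irradiated library (open triangles) on the horizontal log axis, for 6 genes. The control pairs lie near the dotted line of equal values, with Fos at 738 and 796 CPM in 1 pair, while the irradiated libraries of the same tags lie farther from it in some genes.

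The irradiated libraries carry the same tags, and so do dmPGE2 libraries of 1 h, so a tag alone does not name 1 mouse. By counts the irradiated library of tag 5-1 was female, where both controls of that tag were male. Deviations of the irradiated libraries correlated with those of the set A control of the same tag at -0.06 to 0.21. Of the 8 correlations 3 were over 0.1, and 3 of 8 libraries were closest to their own tag. Likeness was thus partial, and irradiated libraries were not treated as paired with controls. Set B also differed from set A within the controls. In a fit that ignored the tags 563 genes were called between them, 234 higher (1.74%) and 329 lower (2.44%) in set B. With the name tag as a block 2290 of the 13475 genes were called between the sets. Of the 563 genes, 172 were also called after radiation, where 2868 of all 13475 genes were. Both comparisons use the same controls. Against set A alone, radiation gave 1051 genes higher (7.8%) and 761 lower (5.65%), and 1692 genes kept their call and direction. Of the 449 genes whose ranges do not overlap, 448 were called against set A alone and 449 with same-tag controls summed. These genes were chosen for lying outside the same controls, so such calls were largely fixed by the choice. Set B alone gave 1814 higher (13.5%) and 1504 lower (11.2%). Finally, irradiated library 3 differed from its group. It had the highest value of the 8 on the first principal component (51.5) and a second component of 41.3, where the other 7 ran from -23.7 to 24.2. The controls of its name tag were also the highest of their sets on the second component, at 27.0 in set A and 51.2 in set B. Without that library 31 p53 targets were higher and 1 lower, 23 NF-kB genes higher and 2 lower, 21 immediate early genes higher and 2 lower, and 1 HSC identity gene higher and 12 lower.

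The spread within the pooled controls was close to that of the irradiated group. The 15 controls include the 7 same-tag pairs and both sets, so their spread may not be that of 15 independent libraries. The median SD of log2 CPM over genes was 0.27 in the 15 controls, 0.23 in set A, 0.27 in set B and 0.26 in the 8 irradiated libraries, and it was larger in the controls for 57.2% of genes. Fitted to each group alone, the biological coefficient of variation was 30.3% in the pooled controls, 26.6% in set A, 33.2% in set B and 29.3% after radiation. On the first principal component, with 19.1% of the variance, irradiated libraries ran from 29.4 to 51.5, set A from -19.2 to -10.3 and set B from -29.8 to -21.9, with no overlap. The genes with the widest spread among controls were Epx, Prg2, Prss34 and Mcpt8, known from eosinophils, basophils and mast cells. Epx ran from 0 to 292 CPM in the controls and from 0.246 to 329 CPM after radiation, and was not called (log2 fold change 0.45, adjusted p 0.845 with edgeR). Total counts ran from 15049364 to 25278219 in the controls and from 20437332 to 26217041 after radiation.

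The sort markers were present in both groups. Kit, the stem cell factor receptor, read 999.8 to 1967 CPM in controls and 1240 to 1786 CPM in irradiated libraries. Fgd5 read 56.8 to 121 and 74.0 to 125 CPM. Procr (EPCR) and Ly6a (Sca-1) did not change by test, with log2 fold changes of -0.26 (SE 0.13) and -0.14 (SE 0.10). Cd48, which the SLAM gate selects against, was low in both, at medians of 14.8 and 11.9 CPM. Slamf1 (CD150), a marker that the gate selects for, was lower after radiation: its log2 fold change was -0.66 (SE 0.11, edgeR adjusted p 8.15e-05), with ranges of 38.7 to 80.4 CPM in controls and 27.9 to 45.6 CPM after radiation that overlap.

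Promoter stretches are shown for 5 of the leading genes because their letters match motifs of p53 or NF-kB. Sequences and starts come from RefSeq on GRCm38.p6 and are written 5′ to 3′ on the gene's strand, with capitals for the motif matched. For Cdkn1a the stretch lies before the first of 2 listed starts and the capitals mark the p53 core (CATG, any 6 bases, CATG), 48 bases before the start. For the other 4 genes capitals mark GGACTTTCC or GGAATTTCC on either strand, the letters searched for NF-kB.
Cdkn1a, chr17:29090886-29090978, + strand: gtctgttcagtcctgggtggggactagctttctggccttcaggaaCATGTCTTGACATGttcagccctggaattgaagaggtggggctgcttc
Nfkbia, chr12:55492648-55492870, - strand: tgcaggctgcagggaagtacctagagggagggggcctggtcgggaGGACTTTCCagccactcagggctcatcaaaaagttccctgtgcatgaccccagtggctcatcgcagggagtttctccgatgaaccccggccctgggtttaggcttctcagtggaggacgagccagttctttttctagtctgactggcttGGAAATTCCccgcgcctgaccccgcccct
Tnfaip3, chr10:19015411-19015479, - strand: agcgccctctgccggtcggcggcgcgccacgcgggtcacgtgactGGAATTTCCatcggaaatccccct
Cxcl2, chr5:90903758-90903856, + strand: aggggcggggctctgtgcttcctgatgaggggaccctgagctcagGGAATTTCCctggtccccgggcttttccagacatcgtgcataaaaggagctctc
Icam1, chr9:21015742-21015840, + strand: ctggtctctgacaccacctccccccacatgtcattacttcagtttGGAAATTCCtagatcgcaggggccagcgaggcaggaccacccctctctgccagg

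Within 250 bases before to 50 after the start, the NF-kB letters were found in 15 of the 230 promoters matched for genes that lie apart and higher (6.52%). The share was 1.49% for genes apart and lower, 0.994% of the 10258 promoters of tested genes and 0.777% of all 27025 promoters. The CRE letters TGACGTCA, which bind CREB and ATF factors, were in 9.57%, 2.99%, 3.52% and 2.03% of the same sets. The AP-1 letters TGAGTCA or TGACTCA were in 4.35%, 4.48%, 4.51% and 5.95%. The p53 core was rare in every set, at 0.435%, 0.746%, 0.351% and 0.833%. These shares describe letters in a window and are not a test, and a window without a match says nothing of sites elsewhere.

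Genes are named first by fold among those called without overlap whose log2 CPM averaged 2 or more. Among the 12 highest of these were 7 of the p53 list. Gdf15, a stress cytokine of the TGF-beta family (chromosome 8, 70629394 to 70631635, mm10), read 0.76, 1.39 and 2.40 CPM (lowest, median and highest) in controls and 866, 1253 and 1567 CPM after radiation. Its log2 fold change was 9.61 (SE 0.18, edgeR adjusted p 5.06e-24). Pmaip1 (NOXA), a BH3-only trigger of cell death, went from 0 to 1.49 CPM in controls to 70.9 to 92.8 CPM, with a log2 fold change of 7.11 (SE 0.34) and an adjusted p of 1.31e-14. Every irradiated library was above every control for both genes.

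Cdkn1a (p21), the CDK inhibitor through which p53 halts the cell cycle (chromosome 17, 29090986 to 29100722, mm10), read 5.8, 6.98 and 17.9 CPM in controls and 562, 632 and 855 CPM after radiation. The log2 fold change was 6.30 (SE 0.20, adjusted p 2.8e-18). Phlda3, a p53-induced repressor of AKT, reached a median of 414 CPM from 5.67 CPM (log2 fold change 6.10). Ddit4l, a relative of the mTOR inhibitor REDD1, rose by 5.72, Eda2r, a death receptor relative of the TNF family, by 5.18 and Btg2, an antiproliferative gene, by 5.15. The other 5 genes of the 12 were the neutrophil chemokines Cxcl2 (6.69) and Cxcl3 (5.23), the early activation antigen Cd69 (5.51), Phlda1 (5.27) and Fam212b (6.06). Cxcl2 was at 0 in some controls and at most 1.78 CPM, against 18.9 to 59.2 CPM after radiation.

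**Figure D2:**
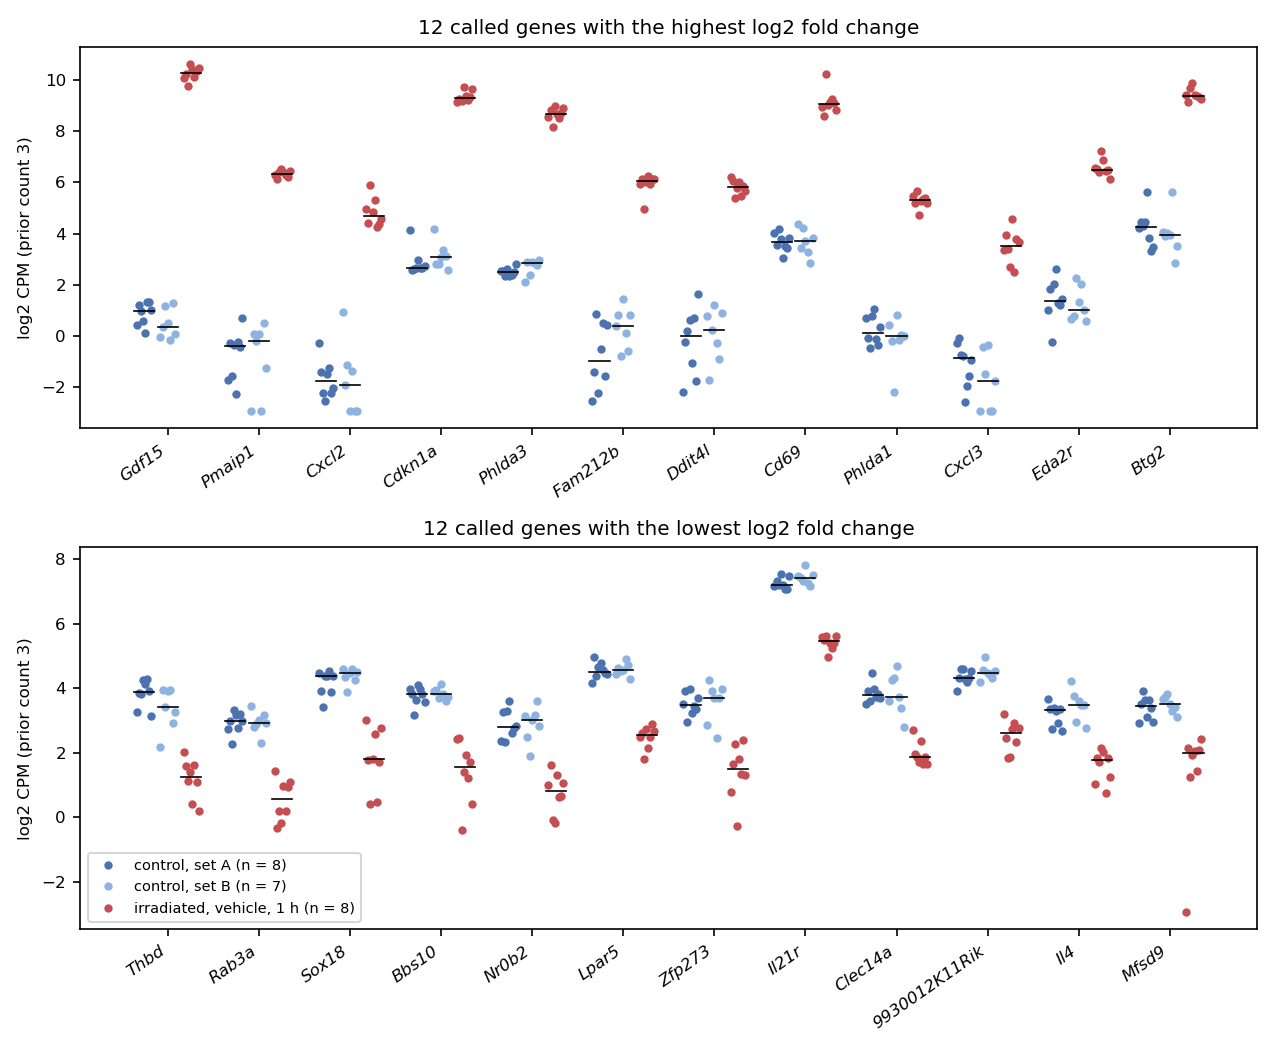
Log2 CPM (vertical axis, prior count 3) of each library for the 12 genes with the highest and the 12 with the lowest log2 fold change among those called without overlap whose log2 CPM averaged 2 or more, with bars at the median of each set. The 8 irradiated libraries (red) lie outside the range of the 15 controls (blue) in all 24 genes, as the rule for these genes requires.

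The 12 lowest genes by the same rule changed less in fold than the 12 highest. Thbd, thrombomodulin (chromosome 2, 148404471 to 148408188, mm10), read 4.41, 14.1 and 19.5 CPM in controls and 1.01, 2.27 and 3.93 CPM after radiation (log2 fold change -2.49, SE 0.27, edgeR adjusted p 4.87e-08). Il21r, an interleukin receptor and the most abundant of the 12, read 133 to 226 CPM in controls and 30.8 to 48.9 CPM after radiation (log2 fold change -1.92, SE 0.10, adjusted p 1.27e-14). The others were Rab3a (-2.39), a GTPase of vesicle release, the endothelial factor Sox18 (-2.25), Bbs10 (-2.21), the orphan nuclear receptor Nr0b2 (-2.18), the lysophosphatidic acid receptor Lpar5 (-2.09), Zfp273 (-2.04), Clec14a (-1.92), 9930012K11Rik (-1.86), Il4 (-1.77) and Mfsd9 (-1.75). All 24 genes were called against set A alone and with same-tag controls summed, which the rule that chose them largely fixed.

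Of 52 p53 targets tested, 31 were higher and none lower, with a median log2 fold change of 0.71, and 24 were higher without overlap. Over all genes 10.9% were higher, 10.4% lower and 2.08% higher without overlap, the background for these counts and for the lists that follow. Against set A alone, and with same-tag controls summed, 28 were higher. The p53 feedback genes rose in 5 of 8 cases. Mdm2, the ubiquitin ligase that degrades p53, read 67.5, 89.1 and 108 CPM in controls and 279, 399 and 487 CPM after radiation (log2 fold change 2.15, SE 0.09). Ccng1 (2.74), Trp53inp1 (3.27) and the phosphatase Ppm1d (1.59) also rose without overlap, whereas Mdm4 was not called (0.13, SE 0.13). These 4 genes, and those of the lists below beyond the 4 strongest in each direction, were chosen after their values were seen.

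Among arrest genes 6 of 9 rose, with the polo-like kinases Plk2 (3.21) and Plk3 (2.45) and Gtse1 (3.17) beside Cdkn1a and Btg2. The sixth, Gadd45a, rose by only 0.39 and lost its call against set A alone (adjusted p 0.105) and with summed controls (0.0603). In the death group 8 of 12 rose. Bbc3 (PUMA), a BH3-only protein, read 11.2, 14.9 and 20.8 CPM in controls and 245, 301 and 403 CPM after radiation (log2 fold change 4.34, SE 0.10, edgeR adjusted p 4.09e-23). The effector Bax changed far less, from a median of 56.9 to 97.9 CPM (0.75, SE 0.08), yet with no overlap. The death receptors Tnfrsf10b (3.10) and Fas (1.27) and the nuclease Aen (1.26) rose as well.

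The stress sensor Sesn2 rose from 30.9 to 563 CPM by the median (4.09, SE 0.11), while its relative Sesn1 was not called (-0.21, SE 0.11). Ddit4 (REDD1), which restrains mTOR, rose by 2.53. Of 7 repair and nucleotide genes of the p53 list 4 rose, with Ddias at 3.31 and the translesion polymerase Polk at 0.61. Of the excision repair genes, Xpc and Ddb2 did not pass the test (-0.12 and -0.17), while Ercc5 rose by 0.95 without overlap. Rrm2b (0.40, adjusted p 0.0407) lost its call against set A alone (0.204) and with summed controls (0.0638), and in 11 of 23 fits that left 1 library out.

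Death and survival genes were also counted as lists of their own, and the pro-apoptotic list shares members with the p53 list. Apaf1, of the apoptosome, rose by 0.83. Of 16 pro-apoptotic genes 6 were higher and 2 lower, where 10.9% and 10.4% of all genes were. The 3 that rose without overlap were the p53 targets Bbc3, Pmaip1 and Bax. The BH3-only gene Bcl2l11 (BIM) rose by 0.99 with overlapping ranges. The lower genes were Bid (-0.34) and Bak1 (-0.85), a count near background, and 1 was lower against either set of controls alone. Bak1 was not called against set A alone (adjusted p 0.14). Of 10 survival genes 2 rose: Mcl1 by 0.95 (SE 0.07) and Birc3 by 2.33 (SE 0.12), both without overlap. Bcl2 (0.00, SE 0.08) and Bcl2l1 (-0.07, SE 0.07) were not called.

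Among 32 NF-kB and inflammatory genes 23 rose and 1 fell, with a median log2 fold change of 1.72, and 17 rose without overlap. Of the subunits, Rel (3.04), Relb (2.41), Nfkb2 (1.71) and Rela (1.13) rose without overlap, and Nfkb1 was not called (-0.05, SE 0.06). Of 8 inhibitors 7 rose. Nfkbia, which encodes IkB-alpha and whose promoter stretch above holds 2 matches, read 143, 184 and 280 CPM in controls and 1612, 1829 and 2540 CPM after radiation (log2 fold change 3.32, SE 0.09, edgeR adjusted p 1.37e-20). Tnfaip3 (A20) rose by 4.09 and Nfkbie by 2.07. These 3 brakes on NF-kB were higher in every irradiated library than in any control.

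Cytokine genes had lower levels and larger folds. Lif read 0 to 1.89 CPM in controls and 9.13 to 27.2 CPM after radiation (log2 fold change 5.14, SE 0.51), and Tnf 0 to 0.912 and 1.76 to 8.12 CPM (3.69, SE 0.58). Cxcl10 rose by 3.14. Cxcl1 was called at 4.41 but stayed at or below 1.40 CPM in every irradiated library, and its fitted fold rests on near-zero controls. Ccl3 fell by 1.33 on the log2 scale. On the surface, Icam1, an integrin ligand, read 91.7, 108 and 125 CPM in controls and 780, 921 and 1056 CPM after radiation (3.05, SE 0.06, adjusted p 5.06e-24), and Ltb (lymphotoxin beta) rose by 1.74. Cd83 rose by 3.67, or by 3.29 without irradiated library 3.

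Immediate early genes were mostly higher, 22 of 33, with a median log2 fold change of 1.17. The 2 that were lower are a share below the background of 10.4%. Junb read 44.9, 69.7 and 331 CPM in controls and 793, 876 and 1093 CPM after radiation (3.06, SE 0.33), and Jun (3.17), Jund (3.04), Atf3 (3.20) and Ier5 (3.93) rose likewise without overlap. Ier2 rose by 1.15 and Nr4a3 by 3.14, the latter from a control median of 0.0408 CPM to 1.07 CPM. Fos and Egr1 were not called: the log2 fold change was -2.28 for Fos (SE 1.26, edgeR adjusted p 0.223) and -0.85 for Egr1 (SE 0.56, adjusted p 0.323). Both genes were highest in the same pair of same-tag controls, at 738 and 796 CPM for Fos and 704 and 652 CPM for Egr1, and the median of Fos was higher after radiation (16.6 CPM) than in controls (5.76 CPM). Dusp6, a phosphatase that turns off ERK, fell by 1.67 without overlap, and Klf10 by 0.36. Klf10 lost its call with either set of controls alone and with summed controls, which left 1 lower gene in the summed fit.

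Nr4a1, an orphan nuclear receptor, rose by 1.93 (SE 0.33), but by 1.15 without irradiated library 3, in which it read 194 CPM against a group median of 30.3 CPM. Crem, a cAMP-responsive factor, rose by 2.09, and by 1.23 without that library. Of 22 cAMP and CREB targets 10 rose and 1 fell, with Sik1 (2.58, SE 0.21), a kinase that CREB induces, without overlap. Of 7 mRNA decay factors 6 rose, among them Zfp36 (2.10), Zfp36l1 (1.68) and Zc3h12a (1.72), which shorten the life of cytokine and early gene transcripts. Of 8 GADD45 and BTG/TOB genes 6 rose, with Gadd45b at 3.21, Tob1 at 2.83 and Btg1 at 1.32, and Gadd45g fell by 0.75. Falls of 1 gene in these lists are near or below the background of 10.4%.

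**Figure D3:**
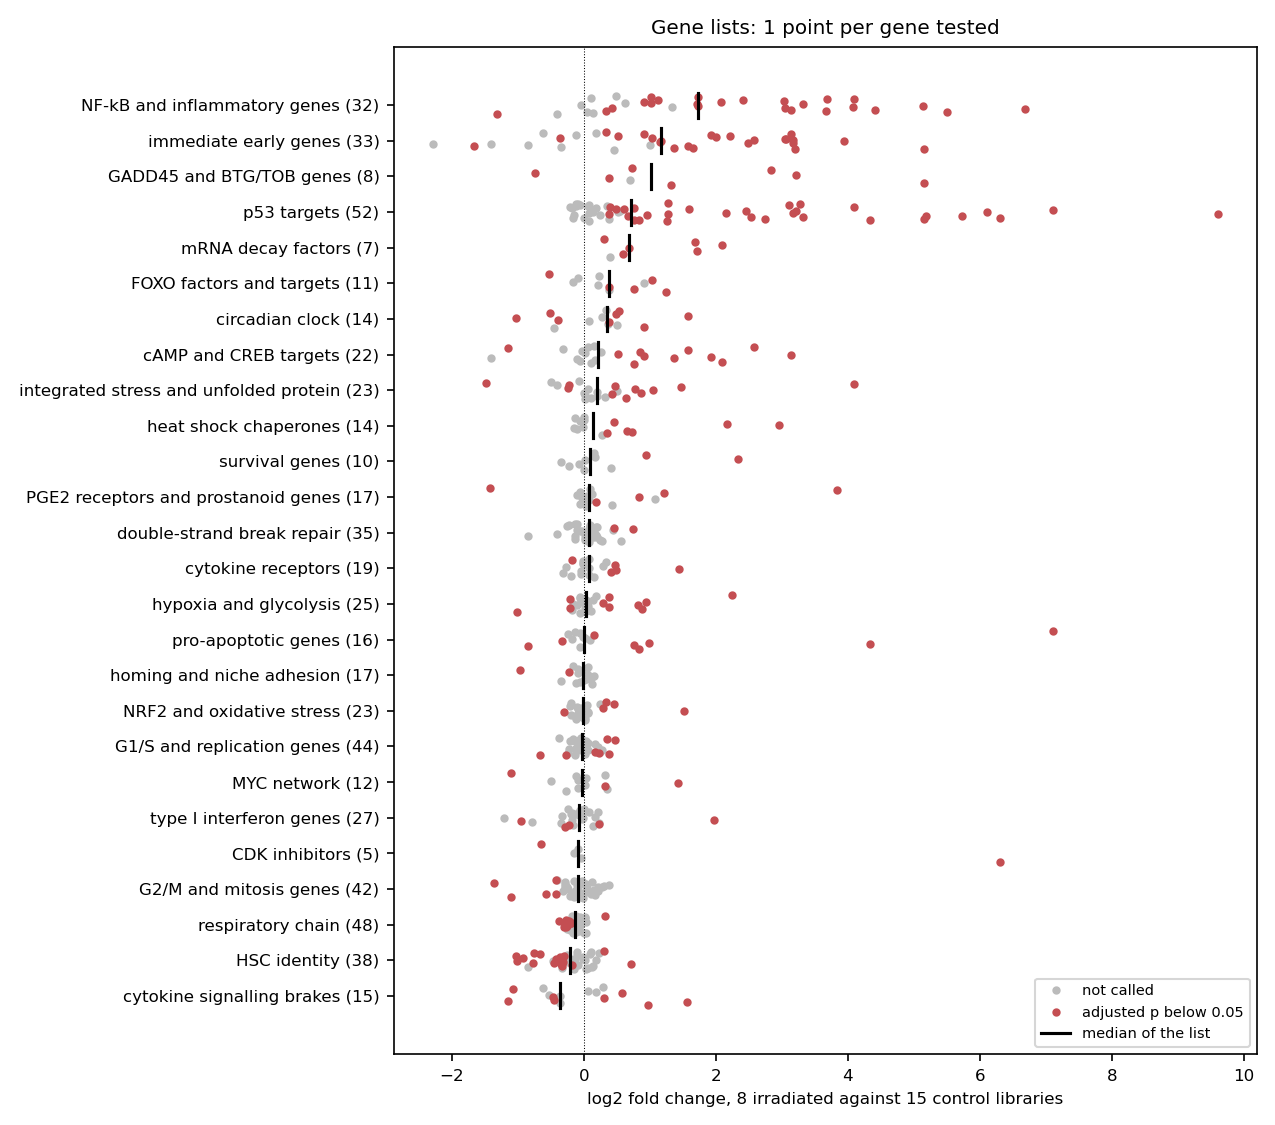
Log2 fold change (horizontal axis) of every tested gene in each list (rows, number of genes in brackets), with called genes in red and a bar at the list's median. The medians of the NF-kB (1.72), immediate early (1.17) and p53 lists (0.71) lie to the right of 0, and that of HSC identity (-0.21) to its left.

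Counts in other stress lists are to be read against background shares of 10.9% higher and 10.4% lower. Nfe2l2, the gene of NRF2, rose by 1.52 (SE 0.07) and Keap1, which holds NRF2 back, fell by 0.30, but of 23 genes of the NRF2 list 4 were higher and 1 lower in all. Of 23 integrated stress and unfolded protein genes 8 rose and 3 fell: Ppp1r15a (1.47), Herpud1 (1.04) and Atf4 (0.64) were higher and Trib3 lower (-1.48, SE 0.13). Of 14 heat shock genes 6 rose, led by Hspa1a (2.95) and Hspa1b (2.17), with the cochaperone Dnajb1 at 0.72. Reads of the 2 Hspa1 near-identical genes could have been split between them or lost in counting, so their values are uncertain. Of 27 interferon genes 2 rose and 3 fell, with Irf1 at 1.97 (SE 0.10), counts near or below background, and with summed controls 1 rose and none fell. In the hypoxia and glycolysis list Vegfa rose by 2.25 among 7 of 25 genes higher and 3 lower. Of 14 clock genes 5 rose and 3 fell, among them Per1 (1.58) and Nr1d1 (-1.04), against set A alone 2 rose and 2 fell, and against set B alone 7 and 1.

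Few genes of repair and the cell cycle were called. Of 35 double-strand break repair genes 2 were higher, Rad52 (0.74) and Rbbp8 (0.46), and none lower, below the background of 10.9%. Against set A alone 2 were also higher, but against set B alone 7, above that comparison's background of 13.5%, and none was lower in either. Of 44 G1/S genes 5 rose and 2 fell, but with summed controls 2 and 2, and against set A alone 2 and 0. Of 42 G2/M genes 5 fell and none rose, and the share that fell is close to the background of 10.4%. With summed controls, set A alone or set B alone 3 fell. Plk1, the mitotic kinase, read 29.6, 46.9 and 78.4 CPM in controls and 10.6, 18.8 and 26.3 CPM after radiation (-1.36, SE 0.17, adjusted p 5.47e-07), and Aurka fell by 1.11 (SE 0.16). Wee1, which restrains entry into mitosis, fell by 0.43. Ccnb1 (-0.58) was called in 11 of 23 fits that left 1 library out and not with summed controls (adjusted p 0.0933). Of 5 CDK inhibitors tested 1 rose, Cdkn1a, and 1 fell, Cdkn2d (-0.66). In the MYC network Mycn fell by 1.10 and Mxd1 rose by 1.43, both without overlap, and Myc was not called (-0.12).

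Genes of HSC identity were more often lower. Of 38 tested 14 were lower and 2 higher, with a median of -0.21, and all but 2 of the lower ones are transcription factors (12 of 23). With summed controls 11 were lower and 1 higher, against set A alone 13 and 0, and against set B alone 12 and 7. Of the transcription factors 9 were lower and 5 higher against set B alone. Hoxa9 read 53.6, 59.9 and 80.1 CPM in controls and 26.9, 29.1 and 43.2 CPM after radiation (-1.01, SE 0.09, adjusted p 2.1e-09). Nkx2-3 (-1.03), Lyl1 (-0.92) and Tal1 (-0.76), the last a pair of related factors of early blood, also fell without overlap. Gfi1b (-0.77), Hlf (-0.45), Meis1 (-0.37) and Gata2 (-0.35) fell with overlap, and Mecom was not called (-0.23, SE 0.11). Flt3, absent from most HSC, was called higher at 0.71 but rested on irradiated library 3, where it read 179 CPM. Without that library it was 0.35 (adjusted p 0.0886), and with summed controls its adjusted p was 0.0849.

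Receptors that link HSC to outside signals were examined next, against the same background of 10.9% higher and 10.4% lower. Ptger4, the PGE2 receptor EP4, read 63, 86.4 and 107 CPM in controls and 117, 146 and 204 CPM after radiation (0.84, SE 0.09, adjusted p 5.99e-08). Ptger1 (0.08), Ptger2 (1.07, SE 0.65) and Ptger3 (-0.03) were not called. Ptgs2 (COX-2), which makes prostaglandins, rose from at most 2.38 CPM to 3.40 to 14.3 CPM, and the thromboxane receptor Tbxa2r fell by 1.43. In all 4 of 17 prostanoid genes rose and 1 fell. Ifngr2 rose by 1.44 (SE 0.09) among 4 of 19 cytokine receptors higher and 1 lower. S1pr1, a receptor that guides HSC into blood and lymph, fell by 0.97 (SE 0.16), 1 of 2 lower among 17 homing genes, a count near background, and none was higher.

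The respiratory chain list moved with the choice of controls. Of 48 respiratory chain genes 10 were lower and 1 higher against all 15 controls, 9 and 1 with summed controls, 0 and 1 against set A and 29 and 0 against set B. The higher gene was Uqcrfs1 (0.32), of complex III. Ndufa1, of complex I, had -0.31 against all controls and lost its call against set A (adjusted p 0.734). Ndufs6, one of the 10, had a log2 fold change of -0.38 (adjusted p 0.00297), and -0.21 against set A alone (0.0993). Of 15 cytokine signalling brakes 4 rose and 4 fell, with 3 and 2 against either set alone and 4 and 4 with summed controls. Of 11 FOXO genes 4 rose and 1 fell, with a median log2 fold change of 0.38. Against set A alone 4 rose and 1 fell, and against set B alone 3 and 1. Over all genes 10.9% were higher and 10.4% lower, so 1 lower FOXO gene of 11 is near background. Genes were also split into 10 groups of equal size by the length they span, from group 1 (shortest) to group 10 (longest). The median log2 fold change against all controls was -0.17 in group 1, 0.11 in group 9 and 0.08 in group 10. Against set A it ran from -0.08 in group 1 to 0.04 in group 8, and against set B from -0.24 in group 1 to 0.20 in group 9. In group 1, 22.9% of genes were called lower, and in group 10, 2.23%. Against set A those shares were 10.9% and 1.26%.

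**Figure D4:**
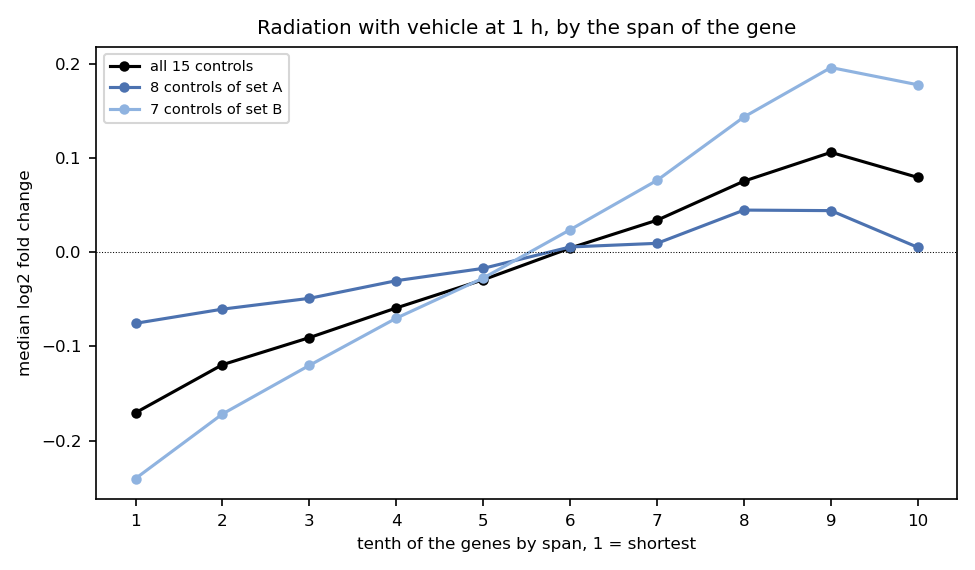
Median log2 fold change (vertical axis) of genes in 10 groups of equal size by the length they span (horizontal axis, 1 shortest and 10 longest), against all 15 controls, set A and set B. The trend from -0.17 to 0.11 with all controls is smaller with set A (-0.08 to 0.04) and larger with set B (-0.24 to 0.20).

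Markers of other cell types gave few calls, and their part in the results above was not tested. The 12 neutrophil genes summed to 272 to 1788 CPM in controls and 122 to 1568 CPM after radiation, and 1 was called, Ltf (2.20, adjusted p 0.0455), which kept its call in 4 of 23 fits that left 1 library out and lost it with summed controls (0.113). No gene of the 13 monocyte and macrophage, 5 erythroid, 5 T and NK cell, 4 mast cell and 8 endothelial markers tested was called. The sum of B cell markers ran from 39.7 to 51.4 CPM after radiation and from 55.8 to 77.6 CPM in controls, a difference of means of -21.3 CPM. Its two-sided exact permutation p was 4.08e-06 (n = 8 and 15), the smallest this design allows, and its adjusted p was 5.71e-05 over 14 measures. Against set A alone the adjusted p was 0.00218. Nearly all of that sum was Cd79b (-0.53, SE 0.07): Pax5 was at 0 in every control and at most 0.0489 CPM after radiation. Of the stromal genes Cxcl12 (-1.71) and Lepr (-3.17) were lower but lost their calls against set A alone (adjusted p 0.0778 and 0.103). Of 5 dendritic cell genes Flt3, described above, was higher and Bst2 lower (-0.29), both called neither against set A nor with summed controls. Of 9 megakaryocyte genes Itgb3 rose by 0.84 and Gp5 fell by 0.99. None of the other 13 measures, which include total count, genes detected and the ribosomal protein share, passed the adjusted test.

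The same radiation dose was also given after dmPGE2, a dimethylated form of prostaglandin E2 that is broken down more slowly. The radiation effect with vehicle was set against the effect with dmPGE2 at 1 h (8 irradiated and 7 unirradiated libraries) in 1 model of all 54 libraries. With dmPGE2 edgeR called 51 genes higher (0.356%) and 3 lower (0.0209%) after radiation. In the same fit of 54 libraries radiation with vehicle gave 1238 genes higher and 1047 lower. That effect had 15 unirradiated libraries in place of 7, so the counts differ in power. The difference between the effects was tested itself. Of 14320 genes, the effect with vehicle was above that with dmPGE2 for 258 (1.8%) and below it for 168 (1.17%). Of 53 p53 targets 26 were above and none below, and of 33 NF-kB genes 16 and none. Gdf15 rose by 9.61 with vehicle and by 4.27 with dmPGE2, a difference of 5.34 (SE 0.52, adjusted p 7.02e-11), and it averaged 33.9 ± 27.8 CPM (SD, n = 8) in irradiated dmPGE2 libraries, below every irradiated vehicle library.

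For Cdkn1a the difference was 5.07 (SE 0.25, adjusted p 4.34e-23), and here the unirradiated dmPGE2 libraries averaged 131 ± 33.4 CPM (SD, n = 7), each above all 15 vehicle controls. Irradiated dmPGE2 libraries read 228 to 411 CPM. The effect with vehicle was also larger for Bbc3 by 3.12, Sesn2 by 3.43, Icam1 by 2.74, Relb by 2.17 and Nfe2l2 by 1.29. Icam1, at 102 to 173 CPM after radiation with dmPGE2, was not called there (0.31, adjusted p 0.546). Among genes that fell, Thbd went down by 2.49 with vehicle but changed by 0.02 with dmPGE2 (adjusted p 1), a difference of -2.50 (SE 0.33, adjusted p 1.39e-07). The differences were -2.16 for Rab3a, -2.09 for Il21r, -2.04 for Sox18 and -1.79 for Lpar5. Lpar5 and Sox18 were low in unirradiated dmPGE2 libraries as well, at no more than 10.9 and 10.7 CPM.

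The difference was not called for Cxcl2 (2.27, SE 0.79, adjusted p 0.125), Gadd45b (0.36, SE 0.34), Zfp36 (-0.15, SE 0.65) or Jun (1.69, SE 0.60). A difference that misses the threshold does not show that these effects are equal. The controls of both effects are separate libraries, but the vehicle controls carry the tags and sets described above. With set A as the vehicle controls 303 genes differed in place of 426, and the adjusted p of Hoxa9 went from 0.0069 to 0.0677.

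**Figure D5:**
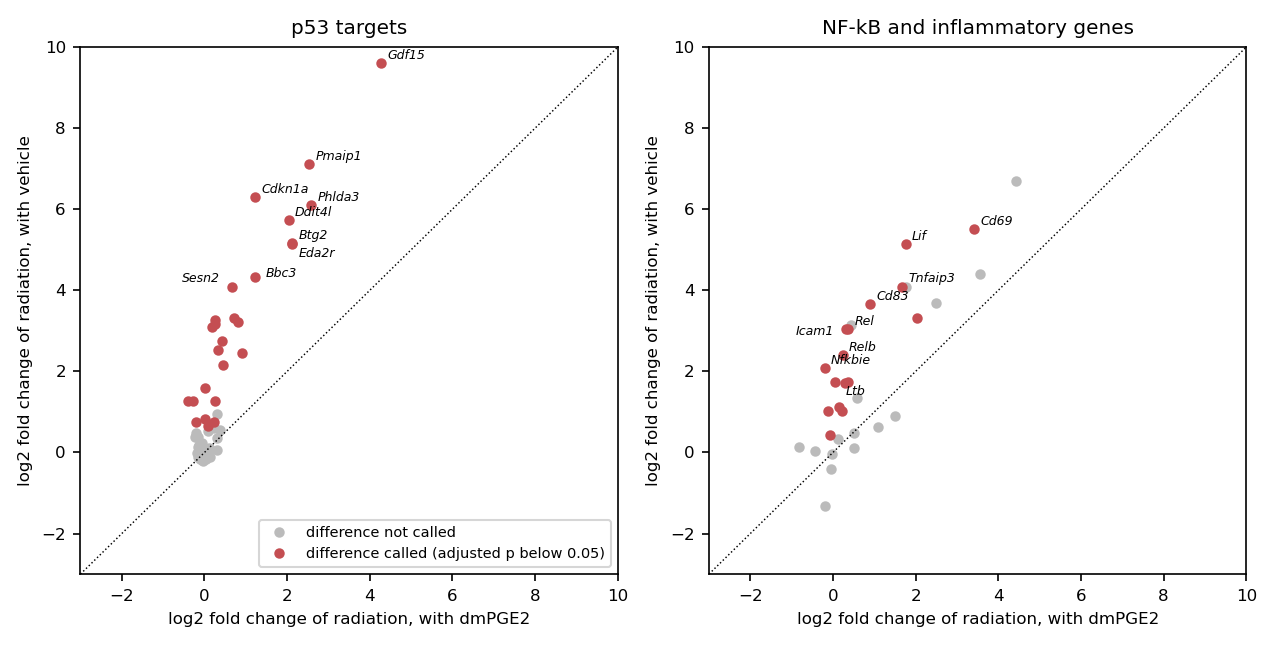
Log2 fold change of radiation with vehicle (vertical axis) against that with dmPGE2 (horizontal axis) at 1 h for the p53 list (left) and the NF-kB list (right), with the dotted line marking equal effects and red points those whose difference was called. Gdf15 (9.61 and 4.27), Cdkn1a and Icam1 lie above the line, and no called point lies below it.

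Set against the 8 irradiated vehicle libraries of 24 h, the 1 h libraries were higher in 3944 of 14320 genes (27.5%) and lower in 3347 (23.4%). Time after radiation and anything else that differed between the collections cannot be told apart here. Of 53 p53 targets 18 were higher at 1 h and 23 lower. Cdkn1a and Phlda3 had differences of -0.10 (SE 0.17) and 0.05 (SE 0.18), and Gdf15 and Bbc3 were higher at 1 h by 3.58 and 1.32. Bax was lower at 1 h by 2.19 on the log2 scale (SE 0.08), at 73.2 to 110 CPM against 396 to 448 CPM at 24 h. Of 33 NF-kB genes 20 were higher at 1 h and 2 lower: Cd69 was higher by 5.54, Tnfaip3 by 5.10, Nfkbia by 3.97 and Icam1 by 2.76, and Cxcl2 was at 0 in all 8 libraries of 24 h. Thbd and Il21r, low at 1 h, stood at 11.1 to 26.3 and 229 to 309 CPM at 24 h. Plk1 was lower at 1 h by 3.01 (SE 0.24), one of 38 lower and 1 higher among 42 G2/M genes.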

How the data were processed

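Sorted HSC RNA was amplified by SMART-Seq v4 and built into Nextera XT libraries, per the labels' protocols; this chemistry generally keeps no strand and no molecular identifiers, which neither the labels nor the table state. The authors' deposited table holds raw read counts per gene and library, per the file headers. Reads were mapped to mm10 using STAR 2.5.2b, and featureCounts (Subread 1.5.1) did the counting, per the submitters' processing notes. The annotation and the strand option of the counting are not named in the sources used here, so reads of overlapping and antisense genes may be mixed. Of 24421 rows, 27 carry symbols turned into dates and are named nowhere. The series' design text gives 7 to 8 mice per group, the same as the number of libraries, and does not say whether mice were pooled. Library totals ran from 15049364 to 26217041 counts in the 23 libraries.

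With edgeR 4.0.16 in R 4.3.3, genes passing filterByExpr (count minimum 10) were TMM-normalized and tested by robust quasi-likelihood over the 23 libraries, leaving 21 residual degrees of freedom. Comparisons with dmPGE2 and 24 h used 1 fit of all 54 libraries. SE was derived from the fold change and its F statistic. P-values are Benjamini-Hochberg adjusted over all genes tested. Marker sums are CPM of the total count, compared by exact permutation with scipy 1.17.1.

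Members and lists were chosen with earlier results of these data known, so lists are described by counts without a test. Genes named are the 12 highest and 12 lowest called fold changes without overlap at a mean log2 CPM of at least 2, up to 4 called members of each list in each direction, 5 p53 targets, the sort markers and 4 PGE2 receptors. Others were chosen after their values were seen, including those of the widest control spread. Alternatives were RLE scaling, DESeq2 1.42.0, voom of limma 3.58.1, no filter, all 54 libraries in the fit, a threshold of 0.01, name tags as a block and leaving out each library. Comparisons with set A, set B and summed same-tag controls were chosen after seeing the data.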

Additional observations from a re-analysis of the deposited data

Results flagged for a closer look

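In 20 of the 147 genes examined, 1 of the 8 irradiated libraries lay far from the other 7 by Dixon's ratio, where chance alone gives about 1 in 20 genes. Irradiated library 3 was the far one in 13 of them. It was highest for Btg1 (7.97 log2 CPM), Cd69 (10.2), Cd83 (7.49), Flt3 (7.48), Hoxa9 (5.44) and Nr4a1 (7.60), and lowest for Aen (6.07), Bid (4.95), Fam212b (4.96), Lif (3.21), Ndufs6 (5.64), Nr1d1 (1.78) and Sesn2 (8.63). Library 1 was highest for Fos (6.34 log2 CPM) and lowest for Ltf (-0.505) and Mfsd9 (-2.93). Library 4 was lowest for Gfi1b (4.80) and Tbxa2r (2.54), library 5 highest for Fgd5 (6.97) and library 6 lowest for Procr (5.93).

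For 76 of the 147 genes examined the radiation effect with vehicle and the effect with dmPGE2 differed by the interaction test of edgeR, which found 426 such genes in all. The vehicle effect was above the dmPGE2 effect for 54 and below it for 22, where over all 14320 genes it was above for 1.8% and below for 1.17%. Of the 147 genes, 128 were called after radiation with vehicle, and many were named for that change. The interaction test uses the same vehicle libraries, so the choice of genes favoured such differences.

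Among p53 targets the vehicle effect was above, on the log2 scale, by 5.34 for Gdf15, 5.07 for Cdkn1a, 4.57 for Pmaip1, 3.69 for Ddit4l, 3.53 for Phlda3, 3.43 for Sesn2, 3.12 for Bbc3, 3.06 for Eda2r, 3.03 for Btg2, 3.02 for Trp53inp1, 2.94 for Tnfrsf10b, 2.90 for Gtse1, 2.60 for Ddias, 2.41 for Plk2, 2.34 for Ccng1, 2.20 for Ddit4, 1.71 for Mdm2, 1.68 for Fas, 1.58 for Ppm1d, 1.55 for Plk3, 1.01 for Aen and 0.53 for Bax. Among inflammatory and survival genes it was above by 3.39 for Lif, 2.87 for Cxcl3, 2.76 for Cd83, 2.74 for Icam1 and 2.67 for Rel. In the same group it was above by 2.42 for Tnfaip3, 2.27 for Nfkbie, 2.17 for Relb, 2.12 for Birc3 and 2.09 for Cd69. Next came Ltb (1.68), Nfkb2 and Ifngr2 (1.41 each), Nfkbia (1.29), Irf1 (1.06), Rela (0.99) and Mcl1 (0.73). For the apoptosome gene Apaf1 it was above by 0.83. For other genes it was above by 3.18 for Phlda1, 2.55 for Sik1, 2.52 for Fam212b, 2.11 for Tob1, 2.01 for Ier5, 1.84 for Jund, 1.51 for Per1, 1.29 for Nfe2l2, 1.21 for Vegfa, 1.08 for Btg1, 0.97 for Mxd1, 0.92 for Zfp36l1, 0.82 for Herpud1 and 0.50 for Dnajb1.

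The difference was negative for Thbd (-2.50), Rab3a (-2.16), Il21r (-2.09), Sox18 (-2.04), Gadd45g (-1.98), Nr0b2 (-1.81), Lpar5 (-1.79), Clec14a (-1.78), Il4 (-1.75), Zfp273 (-1.72), 9930012K11Rik (-1.68), Mycn (-1.51), Bbs10 (-1.48), Trib3 (-1.37), Plk1 (-1.27), S1pr1 (-1.13), Dusp6 (-1.06), Klf10 (-1.05), Aurka (-0.96), Hoxa9 (-0.77), Cdkn2d (-0.71) and Tal1 (-0.56). Gadd45g had risen by 1.24 with dmPGE2 (adjusted p 0.0124) and fallen by 0.75 with vehicle.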

How the results depend on the processing

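The count of 2868 called genes stayed within 1.5 times under RLE scaling (2839), DESeq2 (3173), no filter (2893), all 54 libraries in 1 fit (2285), voom (2950), set B alone (3318) and summed same-tag controls (2351). It fell to 1812 against set A alone, with 761 lower, and to 1694 at an adjusted p below 0.01, with 932 higher and 762 lower. Leaving out 1 library at a time gave 2437 to 2969 called genes, 1287 to 1639 higher and 1150 to 1449 lower, and 2067 genes were called in all 23 of these fits. Irradiated libraries were closest to the control of their own tag in 3 of 8 cases, and pairing by tag was not assumed. A replicate block of name tags gave 3417 calls, with 1810 higher and 1607 lower. With that block 11 of 42 G2/M genes were lower in place of 5, and 6 of 12 neutrophil markers were higher in place of 1. Without TMM factors, the counts without overlap were 248 higher and 217 lower in place of 280 and 169. Of the 147 genes examined, 11 lost their call against set A alone, 7 with summed controls and 0 with DESeq2 or RLE scaling, and none changed sign with a call. Of the 128 called, 121 were called in every fit that left 1 library out. Genes near 0 CPM in controls have fold changes that rest on few counts.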

Other observations

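Genes whose symbol is Zfp followed by a digit, most of which encode zinc finger proteins, were lower more often than higher, an observation made after seeing the data. Of 337 tested 95 were lower and 36 higher, with a median log2 fold change of -0.15, against -0.01 over all genes. Over all genes 10.4% were lower and 10.9% higher, so the count of higher genes is near background. Against set A alone 86 were lower and 25 higher, where 5.65% and 7.8% of all genes were.

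Of the 100 genes with the widest spread among controls, with SDs of 1.01 to 3.97 on the log2 scale, 17 were called after radiation. That is a smaller share than over all genes, of which 2868 of 13475 were called. Prss34, a mast cell and basophil protease, ran from 0.294 to 403 CPM in the controls and from 0.16 to 202 CPM after radiation.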
